A study of Mus musculus with 6 samples.

Results

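The hypoxia response and glycolysis genes were a set of 35 genes: 14 glycolytic enzymes, 5 genes of glucose and lactate transport and of glycolytic control, 3 genes of oxygen sensing and 13 other targets of the hypoxia response. They were chosen by symbol, and every probe set that the platform's probe table assigns to a single member symbol was used, which gave 71 of the 45101 probe sets on the array. These belonged to 32 of the 35 genes, and all 32 had at least 1 probe set bright enough to test (67 of the 71 probe sets). Gpi1 and Eno1 were not analysed here, and Bnip3l was left out because its 3 probe sets are listed together with a pseudogene of it. Total RNA came from 2T3 cells, a mouse pre-osteoblast line of calvarial origin, at passage 8-10 per the labels. The rotated group (3 arrays) had spent 3 days in a rotating wall vessel, a fluid-filled culture chamber that turns about a horizontal axis and is used on the ground to simulate microgravity. The static group (3 arrays) was cultured for the same 3 days without rotation. 2T3 is a single immortalised clone, so all arrays share 1 genetic background, and no genotype or drug differs between the groups. No label states that the 3 samples of a group were separate cultures, so each p-value reflects the scatter of these particular samples and may cover technical error alone.

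Oxygen is read by prolyl hydroxylases of the Egln family, which mark the alpha subunits of hypoxia-inducible factors (HIF) for destruction while oxygen is plentiful. When oxygen is short, HIF-1 alpha persists, pairs with Arnt and binds a short core motif near its target genes, among them the glucose carrier Slc2a1, most enzymes that turn glucose into lactate, and genes of mitophagy, acid-base balance and chromatin. Glycolysis splits glucose into pyruvate in the cytosol, and lactate dehydrogenase with a lactate carrier disposes of the pyruvate that mitochondria do not take up. Osteoblasts are known for a high glycolytic rate and depend on Slc2a1 for glucose uptake. The files hold no reading of oxygen, glucose or lactate, so the values here are transcript levels.

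Levels below are log2 of the quantile-normalised array signal plus an offset of 16.6, and differences are rotated minus static on that scale with limma's standard error (SE). Probe sets of a mean level under 5.99 were too dim to test. A gene was represented by its brightest tested probe set, and levels are set against each other within a probe set only. The array signals had been scaled by the submitters to 1 common trimmed mean, and their medians ran from 70.0 to 130.1. The titles of the samples were used for the groups, where the letter R was taken as rotated. The source fields of static 2 and static 3 go against their titles by naming simulated microgravity. Rotated 1 stood apart in the ratio of the 3′ to the 5′ actin probe set, a sign of RNA quality, at 3.21 against 1.57 and 1.48 in rotated 2 and 3 and 1.29 to 1.37 in the static arrays. Of 11 osteoblast lineage markers, the 8 analysed were all above the threshold, with Alpl, Ibsp and Pth1r close to it. All 8 had lower values in the rotated group, by a median of 0.53. At an unadjusted limma p under 0.05 stood 5 of them, where 3.75% of all 12555 tested genes were lower, and after adjustment 0 passed. Of the markers of other cell types, 10 were above the threshold (2 of 3 analysed for adipocytes, 2 of 4 for cartilage, 2 of 4 for muscle, 3 of 4 for macrophages and 1 of 4 for endothelium). Averaged over each list, the osteoblast marker level relative to the static mean was -0.91 to -0.39 in the rotated arrays, against -0.25 to 0.37 in the static arrays, the macrophage marker level was 0.21 to 0.28 against -0.08 to 0.05, and the adipocyte marker level was -0.39 to -0.34 against -0.31 to 0.21. Of these macrophage markers 0 had an unadjusted p under 0.05, and of the adipocyte markers 1 did, Fabp4, at -0.59 ± 0.24. The part of these lists in the results below was not tested. Below the threshold were Adipoq, Col10a1, Matn1, Myod1, Myog, Ptprc, Pecam1, Cdh5 and Tek. Furthest above it were Fabp4 (mean 11.39 rotated, 11.98 static), Col2a1 (10.22 and 9.82) and Cebpa (8.92 and 9.06). Acan, Acta1, Des, Cd68, Adgre1, Csf1r and Kdr were also above it, so the lists do not exclude other cell types. In bulk RNA, fewer cells of a type and less RNA per cell cannot be told apart.

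The promoters of 6 members are shown because the pathway acts through a shared core motif. Each stretch is the 160 bases before a RefSeq transcript start (build GRCm38.p6), 5′ to 3′ on the strand of the gene. Capitals mark the HIF core letters ACGTG and GCGTG and their reverse complements, and overlapping matches run together. Slc2a1 and Higd1a had the smallest p-values among the members, Bnip3 and Car9 are much used hypoxia targets, and Pgk1 and Ldha are glycolytic enzymes whose values lay on opposite sides of 0. The stretches lie at chr4:119108585-119108744 (plus strand, Slc2a1), chr9:121857797-121857956 (minus strand, Higd1a), chr7:138909507-138909666 (minus strand, Bnip3), chr4:43506866-43507025 (plus strand, Car9), chrX:106186940-106187099 (plus strand, Pgk1) and chr7:46845644-46845803 (plus strand, Ldha).
Slc2a1: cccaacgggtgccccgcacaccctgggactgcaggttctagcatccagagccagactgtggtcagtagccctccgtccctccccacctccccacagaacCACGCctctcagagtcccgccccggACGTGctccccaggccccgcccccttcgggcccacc
Higd1a: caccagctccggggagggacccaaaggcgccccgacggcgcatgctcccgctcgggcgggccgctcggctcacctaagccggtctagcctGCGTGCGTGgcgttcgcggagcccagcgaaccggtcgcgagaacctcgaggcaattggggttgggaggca
Bnip3: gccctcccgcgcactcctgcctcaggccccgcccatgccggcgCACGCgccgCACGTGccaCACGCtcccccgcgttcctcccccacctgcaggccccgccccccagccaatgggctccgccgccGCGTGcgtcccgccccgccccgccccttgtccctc
Car9: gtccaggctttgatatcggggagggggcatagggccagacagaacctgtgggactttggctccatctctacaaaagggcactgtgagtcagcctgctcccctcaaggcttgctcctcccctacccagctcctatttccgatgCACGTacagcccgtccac
Pgk1: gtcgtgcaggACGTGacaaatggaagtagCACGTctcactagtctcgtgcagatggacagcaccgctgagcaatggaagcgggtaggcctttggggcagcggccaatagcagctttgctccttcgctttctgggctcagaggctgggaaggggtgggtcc
Ldha: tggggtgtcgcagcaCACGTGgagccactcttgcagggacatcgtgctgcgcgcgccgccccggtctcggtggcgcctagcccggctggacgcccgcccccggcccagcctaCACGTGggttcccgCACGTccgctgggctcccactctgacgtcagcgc
The Ldha stretch held 5 matches to ACGTG counted on both strands. Those of Pgk1 and Bnip3 held 2, and those of Slc2a1 and Car9 held 1. The letters CACGTG, found in Ldha and Bnip3, give a match on each strand. To GCGTG, the Bnip3 stretch held 3 matches and the Slc2a1 stretch 1. The Higd1a stretch held 2 overlapping matches to GCGTG and none to ACGTG. Members that were lower by value in the rotated group carry the letters too. The stretch of Slc16a3 (-0.82 ± 0.39), not shown, held 2 matches to ACGTG, and that of Pfkfb4 (-0.47 ± 0.24), not shown, held 1 to GCGTG. Over windows of 250 bases before to 50 bases after each start, 33 of the 35 members had a sequence. ACGTG on either strand was present in 22 of these 33 genes (66.7%), against 21.8% of all 27025 genes with such a window. GCGTG was present in 21 of 33 (63.6%) against 35.2% of all genes, and either motif in 30 of 33 (90.9%) against 46.7%. A gene with several starts was counted where any of its windows held the letters. The Ldha stretch shown is from its window with the most matches to either motif (7 against 2). That start lies 3530 bases from the edge of the RefSeq gene. The members are in large part known HIF targets, so their higher shares are no independent result. They had 50 windows for 33 genes, against 32851 windows for all 27025 genes, and more windows give more room for a match. These are matches of letters, and no binding was measured. Ldha and Slc2a1 both carry the letters. In the comparison below, Slc2a1 was higher by value in the rotated group (1.01 ± 0.22). Ldha was lower by value (-0.35 ± 0.30), but stood at 0.051 without rotated 1, so its sign rested on that array. Whether the letters bear on either value was not tested.

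The comparison asked whether 3 days of rotation went with other levels of these transcripts than static culture. After Benjamini-Hochberg adjustment over all 27022 tested probe sets, limma called 0 of the 32 members, as it called 0 of the 12555 tested genes (0%), with a smallest adjusted p of 0.492 among the members. At an unadjusted p under 0.05 stood 2 members higher in the rotated group, Slc2a1 and Higd1a, where 4.5% of all genes were higher, and 0 members lower, where 3.75% of all genes were. The fit that pairs samples by replicate number also called 0 members; at that unadjusted level it placed 4 higher, where 8.24% of all genes were, and 1 lower, where 6.75% were. All 3 rotated arrays lay above all 3 static arrays for 2 members, Slc2a1 and Kdm3a (8.31% of all genes), and below them for 1, Pfkfb4 (7.1% of all genes). The higher count at an unadjusted limma p under 0.05 differed between fits. It was 1 of 32 members with no filter (4.65% of all genes), no trend (3.61%) or the mean over probe sets (4.04%). Without rotated 2 (3.66%) or static 2 (4.17%) it was also 1. As deposited (4.05%), with median centring (3.33%) and without static 1 (4.07%) it was 3. It was 5 without rotated 1 (2.12%), 7 without rotated 1 and static 1 (2.95%) and 6 where the actin ratio was a covariate (1.41%). With array weights, lowest for static 1 (0.36) and rotated 1 (0.41), it was 9 (9.78%). In these fits 0 members passed adjustment. By value, 19 members were higher and 13 lower, with a median difference of 0.26 against 0.03 over all tested genes. Of all 12555 tested genes, 6686 were higher and 5869 lower by value. For 15 of the 32 the difference was smaller than its own SE, and for 30 the 95% interval held 0.

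**Figure D1:**
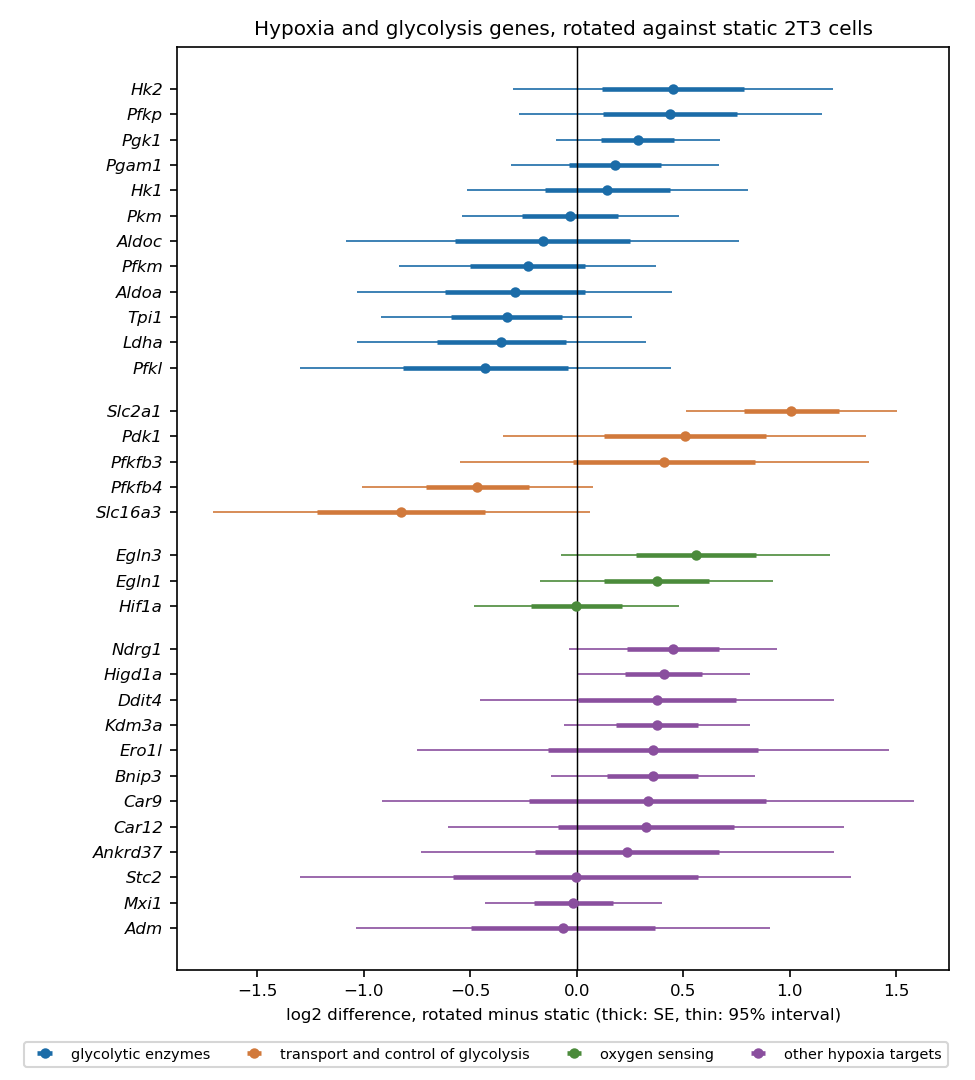
Log2 difference (rotated minus static) of each of the 32 members by role, with SE (thick) and 95% interval (thin), 3 arrays per group. The interval of Slc2a1 (0.51 to 1.51) lies clear of 0, that of Higd1a only just does, and the other 30 hold 0.

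Glycolytic enzymes and the other hypoxia targets, set side by side, had medians on opposite sides of 0. The 12 enzymes measured had a median difference of -0.09, with 5 higher and 7 lower by value, and a range of -0.43 to 0.45. The 12 other hypoxia targets had a median of 0.35, with 9 higher and 3 lower, and a range of -0.06 to 0.45. Of all 12555 tested genes, 6686 were higher by value and 5869 lower. In neither group did a gene pass the adjusted test, and no interaction between the groups was tested. Each median turned on 1 array. Rotated 1 was the lowest of the 6 arrays for 7 of the 12 enzymes (24% of all genes were lowest there), and the enzyme median was 0.16 without it. The enzyme median was also above 0 with median centring (0.11, where the median of all probe sets was 0.10) and with array weights (0.067), while the other targets were then at 0.49 and 0.43. Static 2 was the lowest for 10 of the 12 other targets (17.4% of all genes were lowest there), and their median was -0.0061 without it.

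**Figure D2:**
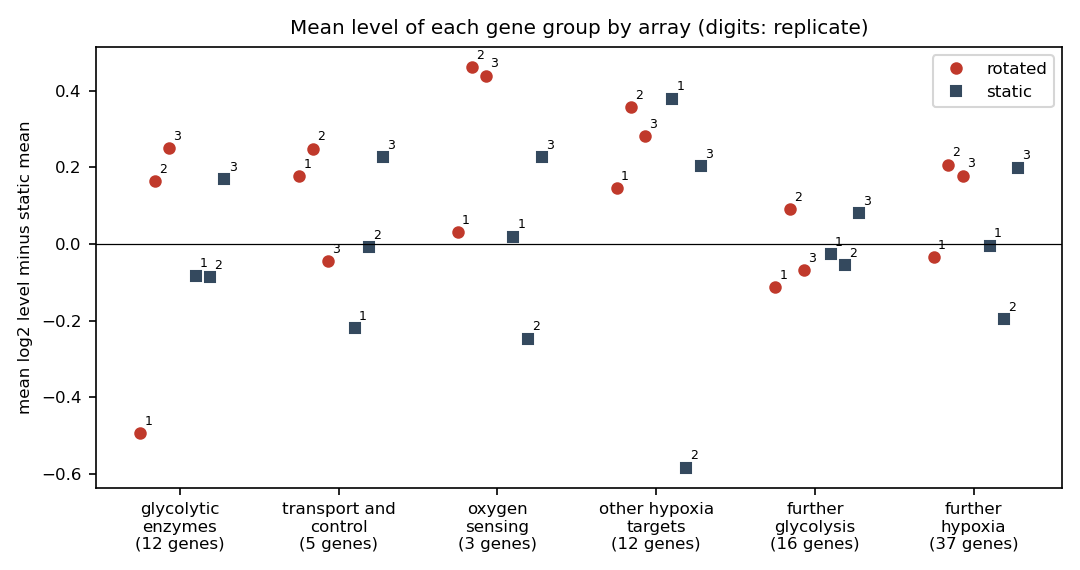
Mean log2 level of each group of genes in each array, as the difference from the mean of the static arrays. Rotated 1 lies lowest for the glycolytic enzymes (-0.49) and static 2 lowest for the other hypoxia targets (-0.58), while the remaining arrays of the 2 groups overlap there.

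Averaged over the 12 enzymes, the level relative to the static mean was -0.49, 0.16 and 0.25 in rotated 1, 2 and 3, against -0.08, -0.09 and 0.17 in static 1, 2 and 3. Rotated 3 was above every static array, rotated 2 was just below static 3, and rotated 1 lay below every array. Rotated 1 also had the highest actin ratio, at 3.21. The ratios of rotated 2 and 3, at 1.57 and 1.48, were above those of the static arrays (1.29 to 1.37) too, without low enzyme levels. The part of this ratio in the result was not tested beyond the fit in which it is a covariate, where the enzyme median was 0.32. Averaged over the 12 other targets, the level was 0.15, 0.36 and 0.28 in rotated 1, 2 and 3, against 0.38, -0.58 and 0.20 in static 1, 2 and 3. The highest array of all was a static one. Static 2 had an actin ratio of 1.29, the lowest of the 6, and is 1 of the 2 static samples whose source field names simulated microgravity.

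**Figure D3:**
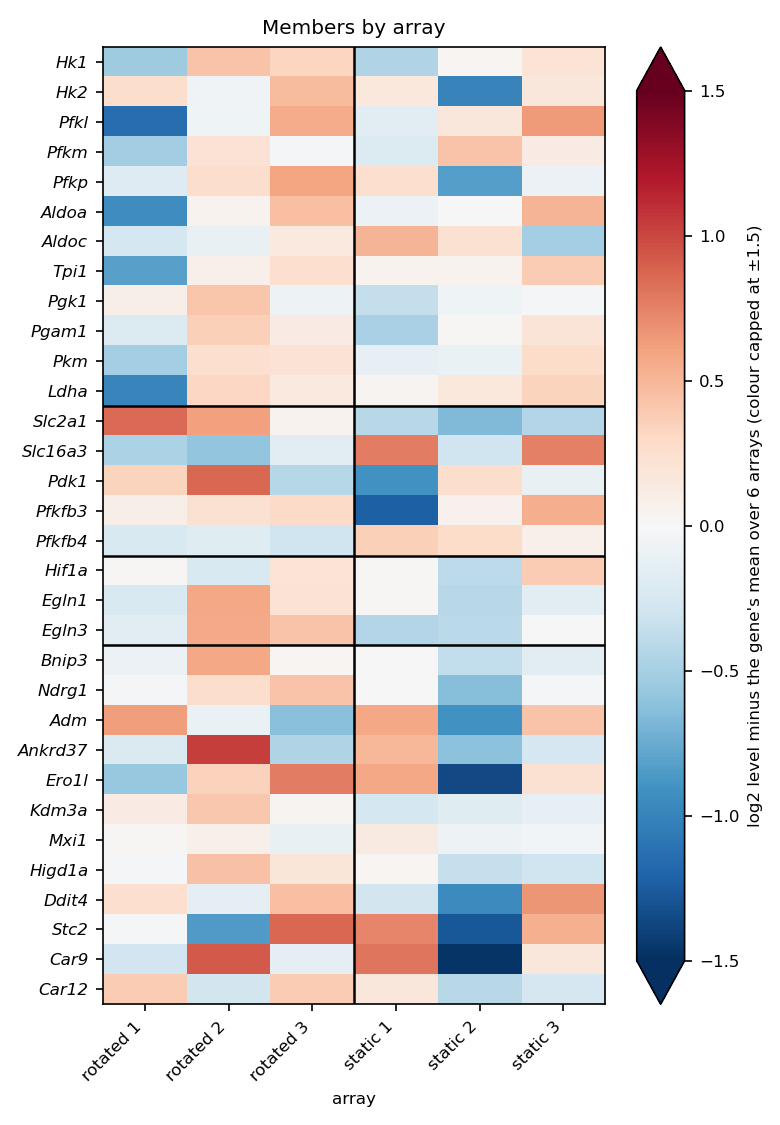
Log2 level of each member (rows, by role) in each array (columns, rotated left of static), as the difference from the mean of that gene over the 6 arrays. The blue run of rotated 1 through the glycolytic enzymes and the blue run of static 2 through the hypoxia targets are the patterns of single arrays described in the text.

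Of the enzymes that commit glucose to the pathway, Hk2, the hexokinase that phosphorylates glucose at the mitochondrial surface and answers to HIF, had levels of 10.44, 10.12 and 10.65 in rotated 1, 2 and 3, against 10.34, 9.17 and 10.34 in static 1, 2 and 3. Static 2 was the low array, and the other 5 overlapped. The difference was 0.45 ± 0.33 (SE, n = 3 per group, limma adjusted p = 0.692), and it was 0.064 without static 2. Hk1, the constitutive hexokinase, differed by 0.14 ± 0.29. The phosphofructokinases, which form fructose 1,6-bisphosphate in the committed step, did not share a direction by value, at -0.43 ± 0.39 for the liver-type Pfkl, -0.23 ± 0.27 for the muscle-type Pfkm and 0.44 ± 0.32 for the platelet-type Pfkp. The 2 other probe sets of Pfkp were lower by value, at -0.54 and -0.15.

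In the middle of the pathway, Aldoa, the main aldolase outside the liver, differed by -0.29 ± 0.33, and all 5 of its probe sets were lower by value (-0.49 to -0.01). Aldoc, the brain-type aldolase, was close to the threshold for testing and differed by -0.16 ± 0.41. Tpi1, which interconverts the triose phosphates, differed by -0.33 ± 0.26 with all 3 probe sets lower by value. In this stretch of the pathway the rotated group was the lower by value, and the 95% interval of each gene held 0. Rotated 1 was the lowest of the 6 arrays for Aldoa and Tpi1, at 11.99 and 13.22.

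Pgk1, the kinase that makes the first ATP of the pathway, had levels of 14.43, 14.76 and 14.27 in rotated 1, 2 and 3, against 13.99, 14.28 and 14.32 in static 1, 2 and 3. Rotated 1 and 2 were above the static arrays and rotated 3 was among them. The difference was 0.29 ± 0.17 (SE, n = 3 per group, limma adjusted p = 0.646), and the other probe sets were at 0.01 and 0.22. Pgam1, the next enzyme, differed by 0.18 ± 0.22, and the pyruvate kinase Pkm by -0.03 ± 0.23. Neither moved beyond its error.

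Ldha, the lactate dehydrogenase subunit that turns pyruvate into lactate, had levels of 13.07, 14.37 and 14.20 in rotated 1, 2 and 3, against 14.10, 14.21 and 14.39 in static 1, 2 and 3. Rotated 1 was lower than all other arrays by over 1 log2 unit, and the other 5 overlapped. The difference was -0.35 ± 0.30 (SE, n = 3 per group, limma adjusted p = 0.723), and it was 0.051 without rotated 1. The 95% interval reached a 2-fold difference for 6 of the 12 enzymes, down to -1.30 for Pfkl and up to 1.21 for Hk2. For the other 6, Pgk1, Pgam1, Pkm, Hk1, Tpi1 and Pfkm, it lay within 2-fold in both directions.

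Among the transport and control genes, Slc2a1 (GLUT1), the glucose carrier of osteoblasts, had the largest difference and the smallest p of all members. Its probe set had deposited signals of 12959.8, 9983.1 and 6354.4 in rotated 1, 2 and 3, against 4312.4, 4102.1 and 4513.0 in static 1, 2 and 3. Its log2 levels were 13.46, 13.23 and 12.67 in rotated 1, 2 and 3, against 12.20, 11.96 and 12.17 in static 1, 2 and 3. Every rotated array was above every static array, and the rotated arrays spread more (SD 0.41) than the static ones (SD 0.13). The difference was 1.01 ± 0.22 (2.01-fold higher in the rotated group, n = 3 per group), with an unadjusted limma p of 0.00122 that did not pass adjustment (adjusted p = 0.492). A second probe set differed by 0.82 ± 0.25 and the third by 0.27 ± 0.24, so all 3 pointed the same way with unequal size. Over all alternative settings the difference stayed between 0.70 and 1.25 and the adjusted p between 0.0585 and 1, so the gene was not called in any of them. The smallest of these p-values came from a fit with array weights, in which 22 of the 27022 probe sets were called and 0 members.

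**Figure D4:**
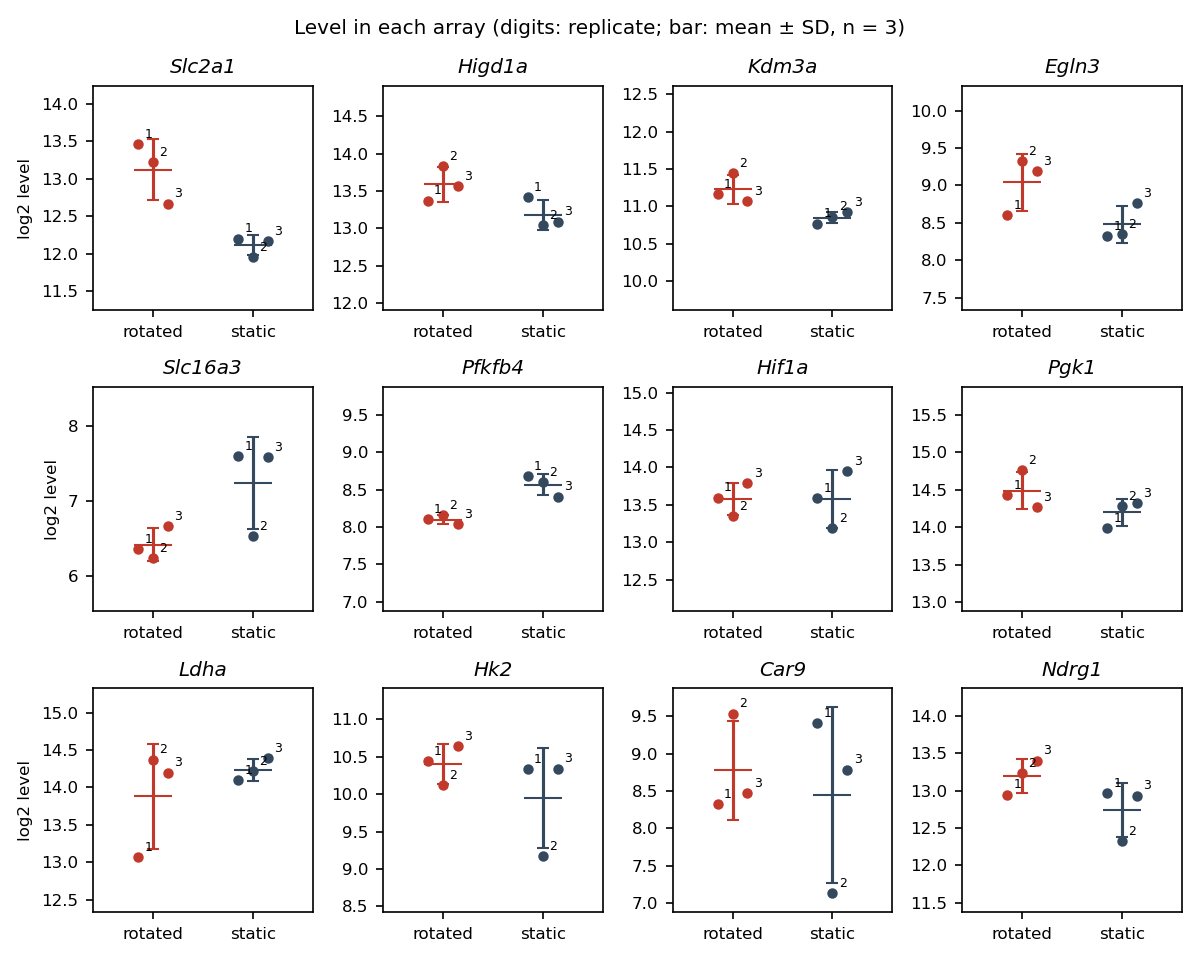
Log2 levels of 12 members in each array (points, with the replicate number), rotated left of static, with the mean and SD of 3 arrays. The groups do not overlap for Slc2a1, Kdm3a and Pfkfb4, and single arrays lie far from their group for Ldha (rotated 1), Hk2 and Car9 (static 2).

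Transcripts of lactate carriers were lower by value, and lactate export itself was not measured. Slc16a3 (MCT4), the lactate carrier that HIF induces, had levels of 6.36, 6.23 and 6.67 in rotated 1, 2 and 3, against 7.60, 6.54 and 7.59 in static 1, 2 and 3. Static 2 lay among the rotated arrays. The difference was -0.82 ± 0.39 (SE, n = 3 per group, limma adjusted p = 0.610), from a single probe set near the threshold for testing. Slc16a1, the other common lactate carrier and no member, differed by -0.30 ± 0.33.

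Pdk1, a kinase that inhibits pyruvate dehydrogenase, differed by 0.51 ± 0.38, and all 4 of its probe sets were higher by value (0.05 to 0.60). Pfkfb3 and Pfkfb4 set the level of fructose 2,6-bisphosphate, the activator of phosphofructokinase. Pfkfb3 differed by 0.41 ± 0.43 and its other probe set by -0.28. Pfkfb4 had levels of 8.10, 8.15 and 8.04 in rotated 1, 2 and 3, against 8.68, 8.60 and 8.41 in static 1, 2 and 3. Every rotated array lay below every static array, but the difference of -0.47 ± 0.24 did not pass (n = 3 per group, limma adjusted p = 0.616). The 5 genes had a median of 0.41 and it was -0.097 without static 1, whose Pfkfb3 level was the lowest of the 6 arrays at 6.60.

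Of the oxygen sensing genes, Hif1a, the regulated subunit of HIF-1, had levels of 13.60, 13.35 and 13.79 in rotated 1, 2 and 3, against 13.59, 13.19 and 13.95 in static 1, 2 and 3. The groups overlapped fully, and the difference was -0.0010 ± 0.21 (SE, n = 3 per group, limma adjusted p = 0.999) with a 95% interval of -0.48 to 0.48. Its dimmer probe sets disagreed, at 0.13 ± 0.27 and -1.19 ± 0.55. Hif1a is regulated mainly through protein stability, which arrays do not see. The hydroxylases Egln1 and Egln3 mark it for breakdown and are HIF targets themselves. Egln3 had levels of 8.60, 9.32 and 9.19 in rotated 1, 2 and 3, against 8.32, 8.35 and 8.76 in static 1, 2 and 3. Rotated 2 and 3 were above all static arrays and rotated 1 was below static 3. The difference was 0.56 ± 0.28 (SE, n = 3 per group, limma adjusted p = 0.610), while Egln1 differed by 0.37 ± 0.24. The second probe set of each was higher by value too, at 0.19 for Egln3 and 0.16 for Egln1.

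Among the other hypoxia targets, Higd1a, a small protein of the inner mitochondrial membrane that helps cells survive low oxygen, was the only one with an unadjusted p under 0.05 in the fit without a replicate block. It had levels of 13.37, 13.83 and 13.57 in rotated 1, 2 and 3, against 13.42, 13.04 and 13.09 in static 1, 2 and 3. Rotated 1 was below static 1, and the other rotated arrays were above all static ones. The difference was 0.41 ± 0.18 (n = 3 per group) with an unadjusted limma p of 0.0494 and an adjusted p of 0.605. Its other probe sets were at 0.04 and -0.38, and the mean over all 3 differed by 0.02.

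Bnip3, a mitochondrial receptor for mitophagy, had levels of 12.48, 13.15 and 12.59 in rotated 1, 2 and 3, against 12.55, 12.20 and 12.40 in static 1, 2 and 3. Rotated 1 lay below static 1, and the difference was 0.36 ± 0.21 (SE, n = 3 per group, limma adjusted p = 0.646). Kdm3a, a histone H3 lysine 9 demethylase, had levels of 11.16, 11.45 and 11.08 in rotated 1, 2 and 3, against 10.77, 10.86 and 10.92 in static 1, 2 and 3. The groups did not overlap, and the difference of 0.38 ± 0.19 did not pass (n = 3 per group, limma adjusted p = 0.616). Ndrg1, a stress protein long used as a hypoxia marker, had levels of 12.95, 13.23 and 13.40 in rotated 1, 2 and 3, against 12.97, 12.32 and 12.93 in static 1, 2 and 3. Its difference was 0.45 ± 0.22 (SE, n = 3 per group, limma adjusted p = 0.610), and its 4 other probe sets lay between -0.20 and 0.10. With the replicate block, Slc2a1, Egln3, Ndrg1 and Kdm3a stood higher and Slc16a3 lower at an unadjusted p under 0.05, and the adjusted p of these 5 genes was between 0.178 and 0.338. In that fit 8.24% of all genes stood higher and 6.75% lower at the unadjusted level, and Higd1a was no longer under it (unadjusted limma p of 0.0531).

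**Figure D5:**
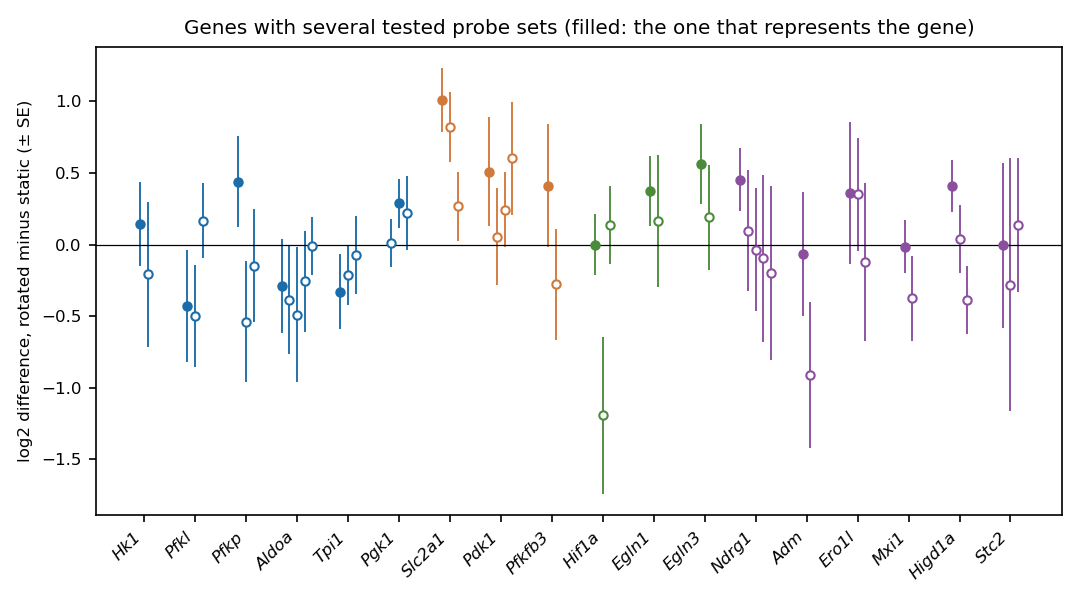
Log2 difference with SE of every tested probe set of the 18 members that have several, the representing one filled. All probe sets lie on 1 side of 0 for 9 of the 18 genes, among them Slc2a1, Pdk1, Aldoa and Tpi1, and the other 9 are mixed, among them Ndrg1, Higd1a and Hif1a.

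Car9, the extracellular carbonic anhydrase that exports acid, had levels of 8.33, 9.53 and 8.47 in rotated 1, 2 and 3, against 9.41, 7.14 and 8.79 in static 1, 2 and 3. The static arrays spread widely (SD 1.17), from static 2 at the bottom to static 1 near the top of all 6, where rotated 2 was the highest. The difference was 0.33 ± 0.56 (SE, n = 3 per group, limma adjusted p = 0.864), and it was -0.32 without static 2. Car12, the related carbonic anhydrase, differed by 0.33 ± 0.41 at a level near the threshold.

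Adm, the secreted vasodilator adrenomedullin, had levels of 10.86, 10.13 and 9.61 in rotated 1, 2 and 3, against 10.81, 9.33 and 10.65 in static 1, 2 and 3. The groups overlapped, and the difference was -0.06 ± 0.43 (SE, n = 3 per group, limma adjusted p = 0.972), with a second probe set at -0.91 ± 0.51. Stc2, a secreted glycoprotein, and Mxi1, an antagonist of Myc, differed by -0.0045 ± 0.58 and -0.015 ± 0.19. These were the 3 lower members of the group by value. Ero1l (Ero1a), the oxidase that drives disulphide formation in the endoplasmic reticulum, differed by 0.36 ± 0.49. Ddit4 (REDD1), an inhibitor of mTORC1, differed by 0.38 ± 0.37, and Ankrd37, an ankyrin repeat protein, by 0.24 ± 0.43. Static 2 was the lowest array for each of Ero1l, Ddit4, Ankrd37, Stc2, Adm and Car9.

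Over all 67 tested probe sets of the members, 34 were higher and 33 lower by value, and 3 had an unadjusted p under 0.05, where 8.26% of all tested probe sets did. Of the represented genes 19 of 32 were higher by value, where 6686 of all 12555 tested genes were. That count is no result about the members, and probe sets were near evenly split. Of the 18 genes with several tested probe sets, 9 kept 1 direction in all of them and 9 did not.

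The same pathways were also read outside the set, from lists of their textbook genes. Of 23 further glycolysis genes, 16 were tested, and their median difference was -0.02, with 7 higher and 9 lower by value. At an unadjusted p under 0.05 stood 0 of them in the limma fit (4.5% of all genes higher, 3.75% lower), and 0 passed adjustment. Tigar, a phosphatase that lowers fructose 2,6-bisphosphate, differed by 0.81 ± 0.37 with all rotated arrays above all static ones (8.31% of all genes). The mitochondrial pyruvate carrier subunit Mpc1 (-0.55 ± 0.25) and the pyruvate dehydrogenase subunit Pdha1 (-0.31 ± 0.18) had all rotated arrays below all static ones (7.1% of all genes). Eno3, an enolase, differed by 0.47 ± 0.28, and the glucose carrier Slc2a3 by -0.45 ± 0.39. These differences did not pass adjustment, and the smallest unadjusted limma p among them was 0.0511, for Mpc1.

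Of 38 further hypoxia genes, 37 were tested, with a median of 0.03, 21 higher and 16 lower by value. In the limma fit 3 of the 37 stood higher (4.5% of all genes) and 1 lower (3.75%) at an unadjusted p under 0.05. After adjustment 0 passed. The transferrin receptor Tfrc, which brings iron into cells, had levels of 12.35, 12.09 and 12.32 in rotated 1, 2 and 3, against 11.56, 10.40 and 10.97 in static 1, 2 and 3. Its difference was 1.28 ± 0.28 with an adjusted p of 0.492, and its other probe sets were at 0.29 ± 0.64 and -0.18 ± 0.84. The ratio of the 3′ to the 5′ control probe set of this transcript reached 8.92 in rotated 1, with 2.73 for rotated 2 and 2.67 for rotated 3, against 1.62 to 3.71 in the static arrays. The adenylate kinase Ak4 differed by 0.84 ± 0.28 and Ppp1r3c, a glycogen-targeting subunit of protein phosphatase 1, by 1.56 ± 0.60. The static mean of Ppp1r3c (5.58) lay below the threshold, so the gene was tested only through its rotated values (mean 7.14). Its groups overlapped, with rotated 3 (5.97) below static 3 (6.24), and it is among the 3 genes counted as higher. Lower by value was Epas1, the HIF-2 alpha subunit, at -0.70 ± 0.29. The HIF partner Arnt (-0.40 ± 0.22) and Vhl (-0.45 ± 0.25), the ubiquitin ligase subunit that removes hydroxylated HIF, had all rotated arrays below all static ones (7.1% of all genes). Vegfa, the angiogenic factor, differed by 0.34 ± 0.36, and Hilpda, Angptl4 and P4ha1, a lipid droplet protein, a lipase inhibitor and a collagen hydroxylase induced by hypoxia, by -0.08 ± 0.41, -0.04 ± 0.59 and 0.03 ± 0.20. Split by role after their values were seen, the 7 regulators of HIF (Arnt, Epas1, Hif3a, Vhl, Egln2, Hif1an and Cited2) had a median of -0.30, with 1 higher and 6 lower by value. The other 30 genes had a median of 0.20, with 20 higher and 10 lower. Of all 12555 tested genes, 6686 were higher and 5869 lower by value. The split leaves out the oxygen sensing members, of which Egln1 (0.37) and Egln3 (0.56) were higher by value and Hif1a stood at -0.0010. Being drawn from these same values, the split is no independent result.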

How the data were processed

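For each of 6 Affymetrix arrays of 1 colour, the authors deposited a linear intensity per probe set; the trimmed mean (2% off each end) is 500.0 on every array, and the summary algorithm is not given in the sources used here. Samples were grouped by their titles. Array medians differed by 85.9%, so quantile normalisation was applied, then log2(value + 16.6), the 20th percentile of all values, which understates differences of dim probe sets. The 64 control probe sets and those with a mean below the 40th percentile were left out, leaving 27022. The test was limma (version 3.58.1, R 4.3.3; intensity trend, two-sided, Benjamini-Hochberg over all tested probe sets), and the fit was tested on simulated data. Symbols came from the platform's probe table, updated through RefSeq (GRCm38.p6), which also gave the promoter windows. Values in every array are given for members with an unadjusted p under 0.05 and for the best known of each role; Kdm3a, Pfkfb4, Slc16a3 and Tfrc were added after their values were seen. Members and lists were chosen with earlier results of these data known.

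Same-numbered samples deviated together (correlations of 0.197, 0.314 and 0.334, against -0.19 to -0.09 for other pairs). Deviations were taken from the mean of each group, so positive values for some pairs force negative ones for others. The negative values are therefore no separate evidence in this check. No label explains the numbers, so the pairing comes from this check alone, and counts from a fit with a replicate block stand beside those that it moves. Results were recomputed on the values as deposited and with median centring, other offsets and filters, no trend, robust eBayes, array weights, the block, the actin ratio as a covariate, the mean over each gene's probe sets, and arrays left out.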

Additional observations from a re-analysis of the deposited data

How the results depend on the processing

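With 3 arrays per group, 0 members passed adjustment under any alternative, and 13 of 32 kept their direction in all that tested them, Slc2a1 among them. At an unadjusted p under 0.05 the number of members higher was 1 with no filter (4.65% of all genes), with no trend (3.61%) and with the mean over probe sets (4.04%), 9 with array weights (9.78%), 4 with the replicate block (8.24%), 6 with the actin ratio (1.41%) and 7 without static 1 and rotated 1 together (2.95%); the number lower was 1 as deposited (3.96%), with no trend (3.24%), array weights (8.08%), the block (6.75%) or the mean over probe sets (4.23%). Leaving out 1 array gave 1 to 5 higher and 0 to 1 lower (2.12% to 5.95% and 2.23% to 5.32% of all genes). The block changed no adjusted call of a member. The transport and control median was -0.073 with array weights, -0.040 without both arrays numbered 1, 0.066 over probe sets and -0.097 to 0.58 leaving out 1 array. The oxygen sensing median was 0.68 without both arrays, the enzyme median 0.32 with the actin ratio, and the median of other targets -0.0061 to 0.47 leaving out 1 array.

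Signs turned as follows, and the cause was not tested. As deposited, Pkm was 0.12, Hif1a 0.14 and Mxi1 0.010. With median centring (median of all probe sets 0.10), Pkm was 0.25, Hif1a 0.27, Adm 0.10, Mxi1 0.15 and Stc2 0.10. With the small offset Stc2 was 0.0021. With array weights, Aldoc was 0.19, Pfkfb3 -0.073, Mxi1 0.059 and Ddit4 -0.21. With the actin ratio, Pfkl was 0.30, Pfkm 0.091, Aldoa 0.32, Tpi1 0.17, Pkm 0.34 and Ldha 0.26. Without both arrays, Aldoc was 0.15, Pkm 0.15, Pfkfb3 -0.040, Mxi1 0.034 and Stc2 0.37. Over probe sets, Hk1 was -0.032 and Pfkp -0.082. Leaving out 1 array, Pfkl ran from -0.81 to 0.034, Aldoa from -0.59 to 0.10, Pkm from -0.16 to 0.22, Ldha from -0.60 to 0.051, Stc2 from -0.64 to 0.42, Hk1 from -0.045 to 0.45, Hif1a from -0.20 to 0.19, Ankrd37 from -0.22 to 0.55, Car9 from -0.32 to 0.82, Adm from -0.53 to 0.23, Mxi1 from -0.057 to 0.048, Aldoc from -0.45 to 0.059, Pgam1 from -0.018 to 0.33, Pfkfb3 from -0.097 to 0.78, Ero1l from -0.23 to 0.74 and Ddit4 from -0.0037 to 0.80.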
